A study of Mus musculus with 12 samples.

Results

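The DNA replication genes examined here were 41 mouse genes, listed by symbol, that encode proteins of origin licensing, helicase activation, the replication clamp, DNA synthesis, nucleotide supply and chromatin assembly. All 41 symbols were found among the 24098 genes of the deposited expression table, and all 41 were among the 14178 genes kept because they reached at least 1 FPKM (a fragment count scaled to transcript length and to the size of the library) in at least 1 library. The list was fixed by name and not by a cut on the level of any gene, but it was chosen with earlier results of these data known.

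Before a cell divides, it loads the MCM helicase onto its replication origins, a step called licensing, and then activates the helicase so that both strands can be copied at moving forks. Primase and polymerase alpha start each new strand, polymerases delta and epsilon extend it while held by the PCNA ring, and nucleases and a ligase join the pieces of the lagging strand. Most of these genes are transcribed in a wave before and during S phase under E2F transcription factors, so that their mRNA is abundant in cycling cells, and pluripotent stem cells are known for a short G1 phase and a large share of cells in S phase.

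The study followed the conversion of mouse embryonic fibroblasts (MEFs) into induced pluripotent stem cells by polyA mRNA-Seq, with 1 library for each of 12 conditions. The MEFs carried a GFP reporter behind Oct4 and were infected with pMXs retroviruses for Oct4, Sox2, Klf4 and c-Myc (OSKM), then grown without feeder cells in a serum replacement medium with LIF, bFGF and CHIR99021. D0 and D3 are the unsorted populations of days 0 and 3. Days 6 and 9 were split by Thy-1, an antigen on the surface of fibroblasts, and days 12 and 16 by SSEA-1, a sugar epitope that appears on cells nearing pluripotency. The Thy-1- fractions D6T- and D9T- and the SSEA-1+ fractions D12S+ and D16S+ form what the study calls the successful route, and the Thy-1+ fractions D6T+ and D9T+ and the SSEA-1- fractions D12S- and D16S- the unsuccessful route. Established iPSCs and the embryonic stem cell line named D3 (mESCs) were the end points, and the labels state that both were grown in the reprogramming medium, where the study's methods name other media for them. Every condition from D3 on, apart from the mESCs, derived from OSKM-infected cells, and the sources used here do not state how many cultures, embryos or iPSC clones a library held.

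With 1 library a condition, no difference below has a replicate check and none was tested. Differences are of log2(FPKM + 1), which understates the change of low genes, and a gene is counted as higher or lower past 2-fold when this difference reached 1. Beside the first count past 2-fold in a comparison stands the share of all 14178 kept genes that met the same rule. At any size, between 46.4% and 51.8% of all kept genes were higher and between 47.0% and 52.8% lower in each of the 19 comparisons. The summed FPKM of a library was lowest in D16S+ (484968) and highest in D0 (648264), and its depth relative to D0, estimated from the steps of low values, was lowest in D9T+ (0.967) and highest in D6T- (1.56). When every library was set to the same total FPKM, the median of all kept genes moved by at most 0.30 in any comparison, and the directions that change with it are given where they occur. In whole-fraction RNA, fewer cells in S phase and less of these mRNAs in each cell cannot be told apart.

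The deposited values carry an interval from cuffdiff, the program that made them, and all 41 genes had an OK status in all 12 libraries. These intervals were wide. The width of an interval was taken as the mean distance of its lower and upper ends from the FPKM. As the median over libraries of a gene, this width lay between 93.9% and 200.2% of the FPKM, and the middle gene of the 41 was at 101%. Lower ends did not go below 0, so the upper side could be the longer one. Rfc4 in D0, for example, was at 5.06 FPKM with an interval from 0 to 19.5 FPKM. In none of the 19 pairs of libraries compared did the interval of any of the 41 genes lie apart from that in the other library. None of the 41 genes is therefore separated between libraries by these intervals, and the differences below are described by their sizes and by how many genes shared a direction. The intervals of all kept genes were not compared, so whether this lack of separation is particular to the 41 is not known.

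None of the 41 genes was under 1 FPKM in D0, where Pola1 was the lowest at 1.07 FPKM, and the median of the genes was highest in the pluripotent end points. Their median level was 28.7 FPKM in D0 and 23.5 FPKM in D3. It stood at 35.1 FPKM in D6T-, 26.0 in D9T-, 38.2 in D12S+ and 46.3 in D16S+, then at 57.3 in iPSCs and 73.8 in mESCs. In the other fractions it stood at 21.0 FPKM in D6T+, 16.8 in D9T+, 24.8 in D12S- and 17.9 in D16S-. The lowest 2 of the 12 medians thus belonged to D9T+ and D16S-, and the highest 2 to the end points.

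Of the 41 genes, 36 had their highest level in mESCs, against 18.5% of all kept genes, and this number was 32 with every library at the same total. The other 5 were Rfc5, Pole and Fen1, which were highest in iPSCs, and Rfc1 and Pola1, which were highest in D16S+. The lowest of the 12 levels was that of D16S- for 26 genes (6.42% of all kept genes; 18 genes at the same total) and that of D9T+ for 10. For Rfc1, Pola1 and Pold2 it was D0, and for Rpa3 and Pold1 it was D3. Over the 12 libraries the genes moved much alike: the correlation of each gene with the mean of the other 40 ran from 0.61 (Pola1), 0.64 (Tk1), 0.75 (Rrm1) and 0.77 (Pold2) up to 0.99 (Mcm5), as a description over libraries that each contribute 1 point to every gene.

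**Figure D1:**
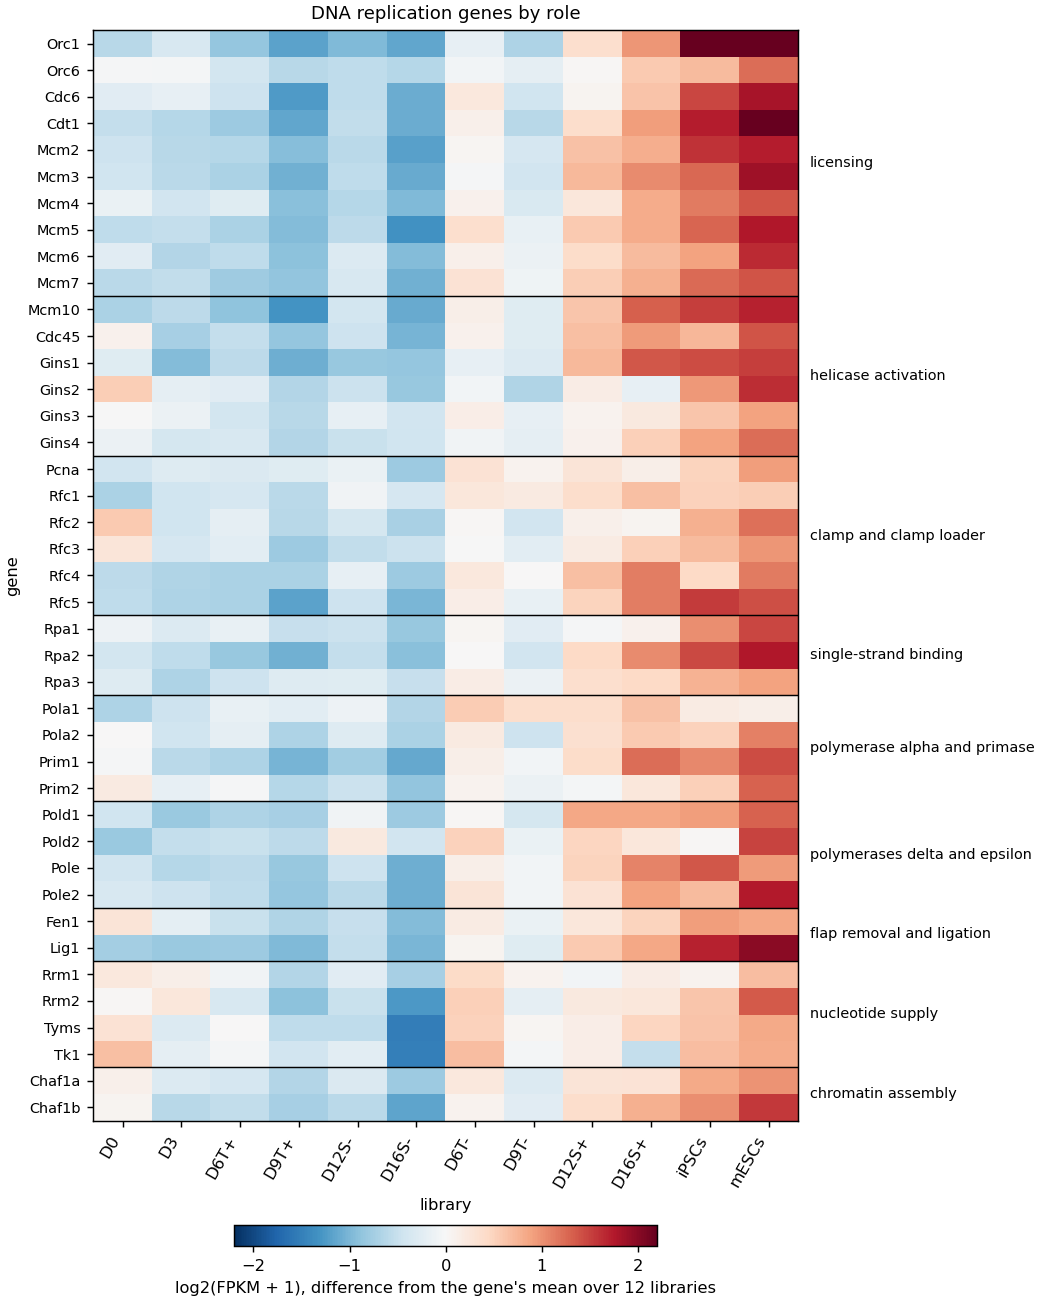
Each row is 1 of the 41 DNA replication genes, grouped by role, and each column 1 of the 12 libraries (1 per condition); colour is log2(FPKM + 1) minus the gene's mean over the libraries. The Thy-1+ and SSEA-1- columns are mostly blue and the iPSC and mESC columns mostly red, with Orc1 and Cdt1 the darkest red, while the nucleotide supply genes are higher in D6T- than in D16S+.

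The sorted fractions of one day were compared first, since they came from the same culture day and differed by the sorting marker. In 40 of the 41 genes the Thy-1- or SSEA-1+ fraction was the higher one on all 4 sorted days, which was true of 23.2% of all kept genes. The exception was Gins2, a subunit of the GINS complex that activates the MCM helicase, at 29.0 FPKM in D9T- and 29.4 FPKM in D9T+, and at the same total its direction followed the other 40. In 30 genes the lowest of the 4 Thy-1- and SSEA-1+ libraries lay above the highest of the 4 Thy-1+ and SSEA-1- libraries, against 8.49% of all kept genes. The 11 genes in which these ranges overlapped were Cdt1, Mcm4, Gins2, Gins3, Rfc2, Rpa1, Pola2, Prim2, Pold1, Pold2 and Tk1.

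On day 6 the members' median difference, D6T- minus D6T+, was 0.67 (all kept genes 0.0046), all 41 genes were higher in D6T-, and 3 were at least 2-fold higher (2.93% of all kept genes) and none 2-fold lower (9.47%). These were Mcm7 at 142 against 65.8 FPKM, Mcm5 at 92.5 against 44.1 FPKM, both subunits of the replicative helicase, and Mcm10, an initiation factor, at 17.7 against 8.26 FPKM. On day 9 the median difference was 0.58 (all kept genes 0.016), with 40 genes higher in D9T-, 2 of them at least 2-fold (1.81% of all kept genes), and none 2-fold lower (6.45%). Those 2 were Mcm10 (13.3 against 5.91 FPKM) and Rfc5, a subunit of the clamp loader (37.8 against 18.2 FPKM).

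On day 12 all 41 genes were higher in D12S+ than in D12S-, by a median of 0.73 (all kept genes -0.012), and 9 were at least 2-fold higher (4.79% of all kept genes) and none 2-fold lower (3.03%). The largest of these differences were those of Gins1, a further GINS subunit, at 15.4 against 4.60 FPKM, of Orc1, the largest subunit of the origin recognition complex, at 8.80 against 2.86 FPKM, and of Mcm3 at 118 against 48.2 FPKM. On day 16 the same comparison gave a median of 1.66, or 3.16-fold (all kept genes -0.021), and 30 of the 41 genes were at least 2-fold higher in D16S+, where 11.8% of all kept genes were. None was 2-fold lower, against 15.2% of all kept genes. D16S+ was the deeper of these libraries, with a relative depth of 1.51 against 0.999 in D16S-, and the part of depth in the difference was not tested.

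The widest gaps of day 16 were those of Mcm10, at 41.7 FPKM in D16S+ against 6.99 in D16S- (2.42), of Prim1, the catalytic subunit of primase, at 22.3 and 3.56 FPKM (2.35), and of Gins1 at 24.9 and 4.52 FPKM (2.23). The narrowest were those of Gins3 (0.63), Gins2 (0.66) and Pold2, the second subunit of polymerase delta (0.68). Gins1 thus lay near one end of the range and Gins2 and Gins3 at the other, although they belong to one complex. In 40 of the 41 genes the gap between fractions was larger on day 16 than on day 6, against 52.2% of all kept genes, with Pold2 the exception. Day 6 was sorted by Thy-1 and day 16 by SSEA-1, so this contrast holds the change of marker as well as the days. Mcm10 was the 1 gene at least 2-fold higher on all 4 sorted days (0.113% of all kept genes).

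**Figure D2:**
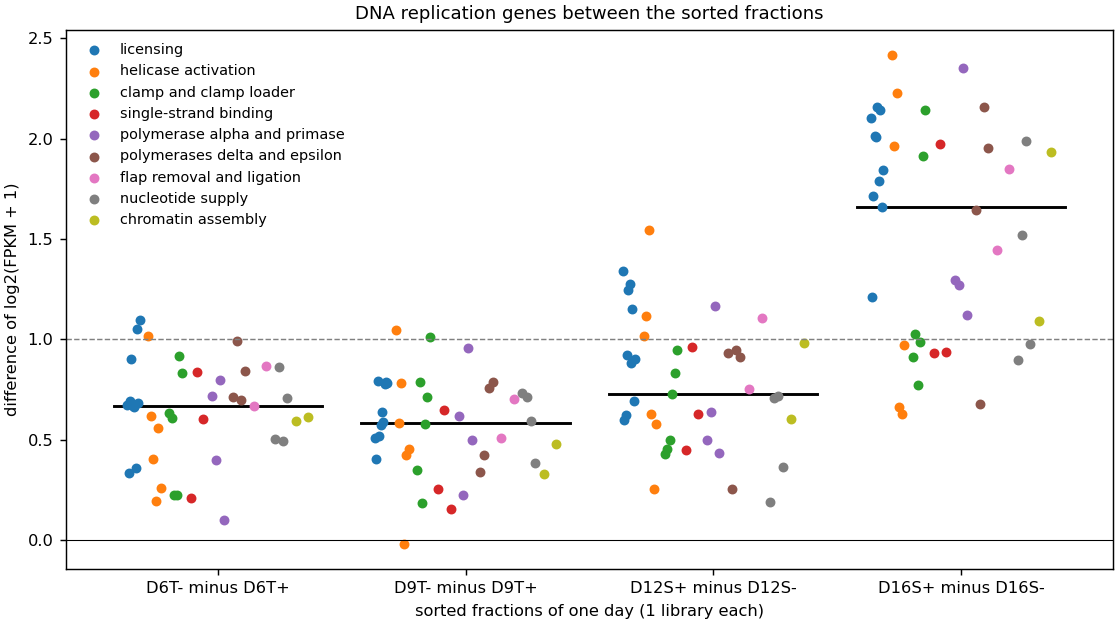
Each point is 1 of the 41 DNA replication genes, coloured by role, and shows its difference of log2(FPKM + 1) between the sorted fractions of one day (1 library each); black bars are medians and the dashed line marks 2-fold. The medians are 0.67, 0.58, 0.73 and 1.66, and on day 16 the lowest gene is at 0.63.

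Along the successful route the genes did not climb evenly. From D0 to D3 the median difference was -0.16 as deposited, with 31 genes lower and 10 higher, but 0.065, with 18 lower and 23 higher, when the libraries were set to the same total, so that no direction is given for the group. Rfc2, the second subunit of the clamp loader, was the single gene past 2-fold (96.0 FPKM in D0 and 46.6 in D3), and 8.67% of all kept genes were 2-fold lower and 5.76% 2-fold higher.

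From D3 to D6T- 40 of the 41 genes were higher, by a median of 0.68 (all kept genes 0.016), and the remaining one, Orc6, was nearly level (-0.011). No gene was 2-fold lower (6.62% of all kept genes), and at least 2-fold higher were 2 genes (3.96%), Pold2 at 45.9 and 95.2 FPKM and Pola1, the catalytic subunit of polymerase alpha, at 1.42 and 3.90 FPKM. D3 was unsorted and D6T- sorted, so the step holds the sort as well as the days.

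From day 6 to day 9 the levels were lower again in both fractions. All 41 genes were lower in D9T- than in D6T-, by a median of -0.35 (all kept genes 0.0084), and none by 2-fold, where 1.14% of all kept genes were (5.06% were 2-fold higher). Cdt1, which loads the MCM helicase together with Cdc6, had the largest of these differences (51.2 and 30.7 FPKM), followed by Rrm2 (102 and 62.0 FPKM) and Tk1 (122 and 74.3 FPKM), enzymes of nucleotide supply. Between D6T+ and D9T+ 39 genes were lower, by a median of -0.32 (all kept genes -0.014), again with none past 2-fold (1.38% of all kept genes lower, 4.92% higher), and Pcna and Rpa3 were the exceptions. Lower on day 9 in both Thy-1 fractions were thus 39 genes, against 34.9% of all kept genes. The relative depth was also lower on day 9, at 1.09 against 1.56 in the Thy-1- and 0.967 against 1.26 in the Thy-1+ fractions, and its part in the step was not tested.

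From D9T- to D12S+ 40 genes were higher, by a median of 0.56 (all kept genes 0.010), with 5 past 2-fold (7.05% of all kept genes) and none 2-fold lower (3.3%). Pold1, the catalytic subunit of polymerase delta, led these at 26.0 and 62.6 FPKM, with Mcm3 (53.2 and 118 FPKM) and Orc1 (3.76 and 8.80 FPKM) next. Rrm1, the large subunit of ribonucleotide reductase, was the one gene lower in D12S+ (31.5 and 28.5 FPKM). From D12S+ to D16S+ 35 genes were higher and 6 lower, with a median of 0.28 and none past 2-fold in either direction (3.59% of all kept genes higher, 5.32% lower). Tk1 had the lowest value of this step (-0.67) and Prim1 the highest (0.82).

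The unsuccessful route ended below its start. In D6T+ the median difference from D0 was -0.24 as deposited, with 37 genes lower, but 0.0052, with 20 lower and 21 higher, at the same total, and no gene was past 2-fold on the deposited scale (4.83% of all kept genes higher, 4.39% lower). D12S- was lower than D9T-, a library of the successful route, in 34 genes, by a median of -0.26. None was past 2-fold (1.04% of all kept genes lower, 3.63% higher). The median level of the genes was higher in D12S- (24.8 FPKM) than in D9T+ (16.8 FPKM), the earlier library of the same route, which was sorted by Thy-1. From D12S- to D16S- 39 genes were lower, by a median of -0.48 (all kept genes -0.0020), and Tk1 was the single gene past 2-fold (65.3 and 26.2 FPKM; 0.536% of all kept genes lower, 2.03% higher).

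D16S- was below D0 in 38 of the 41 genes, by a median of -0.70 as deposited and -0.40 at the same total. At least 2-fold lower were 10 genes, or 24.4% of the 41 (11.4% of all kept genes), and 4 at the same total, and none was 2-fold higher (12.8% of all kept genes). Tk1, the thymidine kinase of the salvage pathway, was at 122 FPKM in D0 and 26.2 in D16S-, and Tyms, which makes thymidylate, at 13.3 and 3.00 FPKM. Gins2 followed at 68.5 and 25.6 FPKM. Pold2, Rfc1 and Pola1 were the 3 genes above D0 in D16S-, all by less than 2-fold.

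By contrast D16S+ was above D0 in 37 genes, with a median of 0.96 as deposited and 1.36 at the same total, 19 genes at least 2-fold higher (20% of all kept genes), led by Mcm10 (2.02), Rfc5 (1.70) and Rfc4 (1.69), and Tk1 the single gene 2-fold lower (122 and 52.6 FPKM; 20.9% of all kept genes), a difference that did not reach 2-fold at the same total. The share of the 41 genes past 2-fold was 46.3%. From day 12 to day 16, 33 genes were higher in the SSEA-1+ and lower in the SSEA-1- fraction, against 20.7% of all kept genes.

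**Figure D3:**
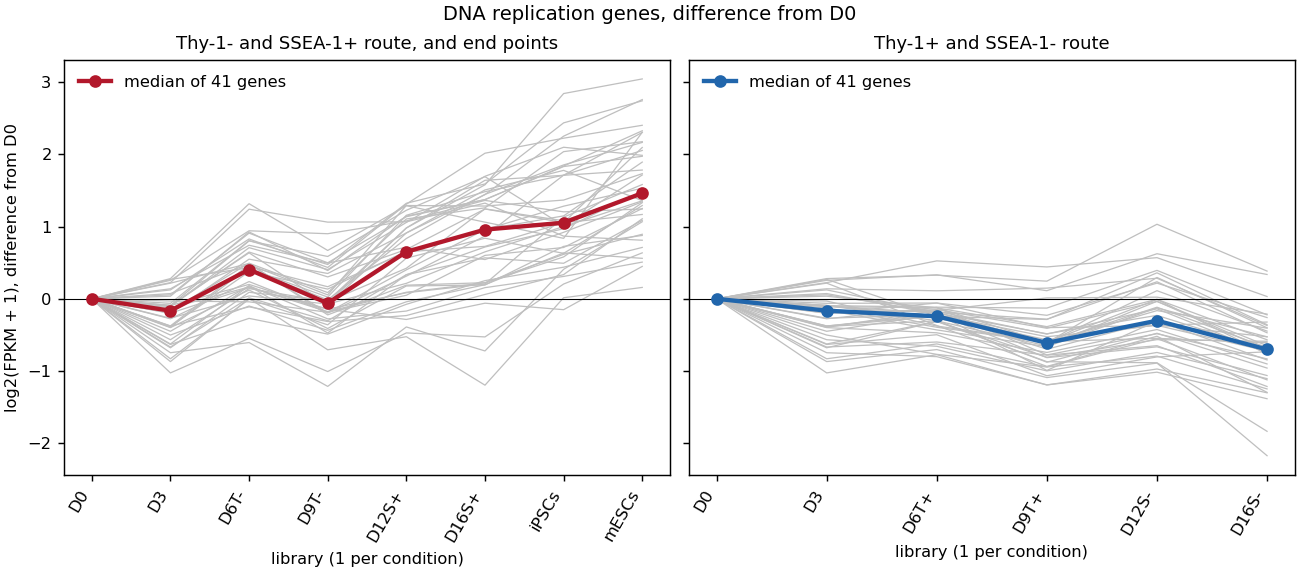
Difference of log2(FPKM + 1) from D0 for each of the 41 DNA replication genes (grey lines) and their median (thick line with points), with the libraries of the successful route and the end points on the left and those of the unsuccessful route on the right, 1 library per condition. On the deposited scale the left median is below 0 at D3 and D9T- and reaches 1.46 in mESCs, and the right median ends at -0.70 in D16S-. With the libraries set to the same total the D3 median was 0.065, and D9T- was not compared with D0 on that scale, so no direction is given for either.

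The 10 licensing genes included the widest range of any single member, that of Orc1. Their median difference between the fractions of day 16 was 1.93, all 10 were at least 2-fold higher in D16S+ (11.8% of all kept genes), and 9 of the 10 were at least 2-fold higher in iPSCs than in D0 (median 1.77; 18.7% of all kept genes). Orc1 (chr4:108252058-108287436 in mm9) was at 3.97 FPKM in D0 and 4.98 in D3, at 5.70, 3.76, 8.80 and 13.8 FPKM in D6T-, D9T-, D12S+ and D16S+, at 3.20, 2.35, 2.86 and 2.45 FPKM in D6T+, D9T+, D12S- and D16S-, and at 34.6 FPKM in iPSCs and 40.0 in mESCs. Its level in mESCs was 10.1 times that in D0, the largest such ratio among the 41 genes. Orc6 (chr8:87823530-87832178), a further subunit of the origin recognition complex and the narrowest of the licensing genes, was at 14.9 FPKM in D0 and 14.6 in D3, at 14.4, 13.0, 15.4 and 23.1 FPKM in D6T-, D9T-, D12S+ and D16S+, at 11.2, 9.55, 9.88 and 9.43 FPKM in D6T+, D9T+, D12S- and D16S-, and at 25.0 FPKM in iPSCs and 36.8 in mESCs.

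Cdc6 and Cdt1, the loading factors that bring the helicase to origins, followed Orc1. Cdc6 was lowest in D9T+ (1.78 FPKM), had a median of 4.68 FPKM over the 12 libraries and was highest in mESCs (22.0 FPKM). Cdt1 ran from 21.1 FPKM in D9T+ over a median of 32.5 FPKM to 226 FPKM in mESCs, and was at 90.3 against 21.7 FPKM on day 16. Both therefore had their lowest level on day 9 in the Thy-1+ fraction with D16S- close above it.

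Of the 6 subunits of the MCM2-7 helicase, a ring that needs one copy of each, Mcm7 was the highest and Mcm4 the lowest in all 12 libraries, while the order of the other 4 changed between libraries, and the ratio of the highest to the lowest lay between 2.50 in D6T+ and 4.37 in D12S-. The median of the 6 was 50.6 FPKM in D0, 31.0 in D16S-, 132 in D16S+ and 254 in mESCs. Mcm5 (chr8:77633407-77652338) was at 48.2 FPKM in D0, 127 in D16S+ and 27.9 in D16S-, and Mcm6 (chr1:130228167-130256233) at 48.9, 96.0 and 29.7 FPKM.

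Because these genes moved together, their promoters were read for the sites named in textbooks for E2F factors. Promoter windows of 300 bases, from 250 before to 50 after the start of the gene, were held by RefSeq (build GRCm38.p6) for 34 of the 41 genes. By exact match each window was found once in the stretch of mm9 around its own gene, which gives the positions below. The rest of the genome was not searched for the windows. The words TTTCCCGC, TTTGGCGC, TTTCGCGC and TTTGCCGC were searched on both strands. At least 1 of them was in the window of 13 of the 34 genes (38.2%), against 704 of the 27025 genes with a window (2.6%). The first 3 words were each in 6 of the 34 and the fourth in none, and the 19 matches began between 165 bases before and 39 bases after the start. The 13 genes were Cdc6, Cdt1, Gins3, Lig1, Mcm3, Mcm5, Mcm6, Mcm7, Orc1, Pola1, Pold1, Pole2 and Rfc3. The CCAAT box, read as CCAAT on both strands, was in 22 of the 34 windows (64.7%) and in 41.1% of all, and the words TTTGAA and TTCGAA, the cores of the element known as CHR, in 7 of 34 (20.6%) and in 21.7% of all.
The windows of 3 licensing genes with E2F words, of the clamp loader gene Rfc3, whose words lie at the start itself, and of Mcm2, a ring subunit with none of the 4 words, are printed 5′ to 3′ on the strand of the gene, with the E2F words in capitals.
Orc1 (chr4:108251809-108252108, plus strand): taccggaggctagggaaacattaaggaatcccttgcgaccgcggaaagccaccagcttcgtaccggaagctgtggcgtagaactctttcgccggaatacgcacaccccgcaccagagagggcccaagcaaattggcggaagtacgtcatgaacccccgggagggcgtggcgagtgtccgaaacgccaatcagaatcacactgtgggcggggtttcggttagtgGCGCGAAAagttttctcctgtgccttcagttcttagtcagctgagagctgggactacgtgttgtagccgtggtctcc
Mcm5 (chr8:77633158-77633457, plus strand): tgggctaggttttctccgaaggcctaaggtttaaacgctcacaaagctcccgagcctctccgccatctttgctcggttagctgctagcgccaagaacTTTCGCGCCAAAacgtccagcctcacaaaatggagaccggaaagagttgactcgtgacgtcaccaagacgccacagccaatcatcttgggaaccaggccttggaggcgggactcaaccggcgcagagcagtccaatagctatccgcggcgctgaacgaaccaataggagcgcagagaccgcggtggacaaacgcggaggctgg
Mcm6 (chr1:130256233-130256532, minus strand): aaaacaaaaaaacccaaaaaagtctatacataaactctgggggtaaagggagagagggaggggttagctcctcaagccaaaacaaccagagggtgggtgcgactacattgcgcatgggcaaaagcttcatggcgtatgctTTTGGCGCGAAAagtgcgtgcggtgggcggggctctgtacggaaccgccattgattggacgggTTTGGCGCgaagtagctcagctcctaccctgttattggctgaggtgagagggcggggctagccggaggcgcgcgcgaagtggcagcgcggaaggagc
Rfc3 (chr5:152453734-152454033, minus strand): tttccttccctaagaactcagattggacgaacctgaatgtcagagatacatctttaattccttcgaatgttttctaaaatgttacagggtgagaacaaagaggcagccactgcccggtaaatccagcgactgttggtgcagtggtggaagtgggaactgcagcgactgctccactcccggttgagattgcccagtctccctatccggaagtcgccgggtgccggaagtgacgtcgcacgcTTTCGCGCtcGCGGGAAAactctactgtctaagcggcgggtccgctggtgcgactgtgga
Mcm2 (chr6:88848725-88849024, minus strand): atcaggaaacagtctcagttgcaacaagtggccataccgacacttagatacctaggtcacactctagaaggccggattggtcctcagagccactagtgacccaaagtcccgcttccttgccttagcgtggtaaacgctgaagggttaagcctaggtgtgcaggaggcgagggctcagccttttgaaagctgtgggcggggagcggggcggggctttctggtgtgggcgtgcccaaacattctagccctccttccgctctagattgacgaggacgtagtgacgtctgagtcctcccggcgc
In Mcm5 the words TTTCGCGC and GCGCCAAA overlap, and so do TTTGGCGC and GCGCGAAA in Mcm6, so that overlapping words count as separate matches at one place. Between the fractions of day 16, Mcm2, whose window holds none of the 4 words, differed by 2.01, and Mcm5, whose window holds 2 matches, by 2.14. Members with and without the words were not compared as groups, and other forms of the site were not searched. A match shows only that the letters are there, and binding of E2F factors was not measured.

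The 6 genes of helicase activation were less alike. Mcm10 (chr2:4911769-4933837) was at 9.55 FPKM in D0 and 10.5 in D3, at 17.7, 13.3, 25.2 and 41.7 FPKM in D6T-, D9T-, D12S+ and D16S+, at 8.26, 5.91, 11.9 and 6.99 FPKM in D6T+, D9T+, D12S- and D16S-, and at 48.3 FPKM in iPSCs and 54.8 in mESCs. The 4 libraries of the successful route (lowest 13.3 FPKM) did not overlap with those of the unsuccessful one (highest 11.9 FPKM). Gins3 (chr8:98157458-98168959), the lowest of the GINS subunits throughout, was at 2.05 FPKM in D0 and 1.79 in D3, at 2.41, 1.69, 2.24 and 2.55 FPKM in D6T-, D9T-, D12S+ and D16S+, at 1.32, 1.01, 1.72 and 1.30 FPKM in D6T+, D9T+, D12S- and D16S-, and at 3.67 FPKM in iPSCs and 4.66 in mESCs, and its routes overlapped.

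Gins1 and Gins2 parted ways. Gins1 was at 7.29 FPKM in D0, 24.9 in D16S+ and 26.1 in iPSCs, and thus already near its end point on day 16. Gins2 was at 68.5 FPKM in D0, 41.1 in D16S+ and 91.2 in iPSCs, and thus below D0 on day 16 and 2-fold higher in iPSCs than in D16S+. Gins2 was the highest GINS subunit in all 12 libraries, and the ratio of Gins2 to Gins3 lay between 16.1 in D16S+ and 33.5 in D0. Cdc45, which joins GINS and the MCM ring in the active helicase, was at 25.5 FPKM in D0, 46.3 in D16S+ and 11.1 in D16S-. Both Cdc45 and Gins2 are overlapped on the opposite strand by another coding gene in GENCODE M1, and whether the counting used strand is not stated in the sources used here.

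Pcna, the sliding clamp, was among the flattest of the well expressed members. It was lowest in D16S- (48.6 FPKM), had a median of 83.2 FPKM and was highest in mESCs (162 FPKM), and its gap between the fractions of day 16 was 0.91. Pcna has a near-identical copy in the genome, and the authors removed reads with several loci.

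Of the clamp loader subunits, Rfc5 (chr5:117829153-117839032) had the widest range, at 28.3 FPKM in D0 and 26.1 in D3, at 46.8, 37.8, 59.9 and 93.9 FPKM in D6T-, D9T-, D12S+ and D16S+, at 25.9, 18.2, 30.7 and 20.5 FPKM in D6T+, D9T+, D12S- and D16S-, and at 124 FPKM in iPSCs and 115 in mESCs. Rfc1 (chr5:65653090-65726878), the large subunit, had the narrowest, at 12.5 FPKM in D0 and 15.1 in D3, at 24.9, 24.2, 27.5 and 33.7 FPKM in D6T-, D9T-, D12S+ and D16S+, at 16.0, 13.6, 19.8 and 16.0 FPKM in D6T+, D9T+, D12S- and D16S-, and at 30.1 FPKM in iPSCs and 30.9 in mESCs. Rfc1 was higher than D0 in each of the other 11 libraries, and its highest level was that of D16S+ and not of an end point.

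The balance of the loader subunits shifted. Rfc2 was the highest of the 5 in D0, at 96.0 FPKM against 28.3 for Rfc5, and the ratio of the highest to the lowest subunit, Rfc4, was 19.0. In D16S+ Rfc5 was the highest, at 93.9 FPKM against 66.2 for Rfc2, and the ratio was 5.06. Rfc4 itself was at 5.06 FPKM in D0, 18.6 in D16S+, 11.2 in iPSCs and 18.9 in mESCs. By the median over libraries of the mean distance to the ends, the intervals of Rfc4 were the widest of the 41 genes, at 200.2% of the FPKM. In a single library Pold2 had a wider one, from 0 to 308 FPKM around 37.6 FPKM in D0.

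RPA coats the single strands that the helicase exposes. Rpa2 (chr4:132324274-132334661) was at 27.2 FPKM in D0 and 24.3 in D3, at 36.3, 26.9, 49.3 and 75.8 FPKM in D6T-, D9T-, D12S+ and D16S+, at 19.9, 16.8, 24.8 and 18.6 FPKM in D6T+, D9T+, D12S- and D16S-, and at 101 FPKM in iPSCs and 125 in mESCs. Rpa3 (chr6:8205935-8209141), the smallest subunit, was at 9.66 FPKM in D0 and 7.10 in D3, at 13.5, 11.0, 15.7 and 16.6 FPKM in D6T-, D9T-, D12S+ and D16S+, at 8.53, 9.75, 9.82 and 8.20 FPKM in D6T+, D9T+, D12S- and D16S-, and at 21.1 FPKM in iPSCs and 22.9 in mESCs. Rpa1, the subunit that holds most of the DNA binding, differed little between D0 (59.1 FPKM) and D16S+ (68.3 FPKM) and was at 131 FPKM in iPSCs. In D16S+ Rpa2 was thus well above D0 and Rpa1 little above it, and both were highest in mESCs.

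The priming enzymes split as well. Prim1 (chr10:127452270-127467086) was at 8.81 FPKM in D0 and 5.62 in D3, at 9.82, 8.54, 12.1 and 22.3 FPKM in D6T-, D9T-, D12S+ and D16S+, at 5.22, 3.91, 4.86 and 3.56 FPKM in D6T+, D9T+, D12S- and D16S-, and at 19.7 FPKM in iPSCs and 26.0 in mESCs. Pola1 (chrX:90550104-90877494) was at 1.07 FPKM in D0 and 1.42 in D3, at 3.90, 3.33, 3.34 and 4.19 FPKM in D6T-, D9T-, D12S+ and D16S+, at 1.98, 1.81, 2.08 and 1.12 FPKM in D6T+, D9T+, D12S- and D16S-, and at 2.78 FPKM in iPSCs and 2.64 in mESCs. Pola1 was low in D0 and D16S- and about level in the 4 libraries of the successful route, and its iPSC and mESC levels lay below all 4 of them. Pola2, the second subunit of polymerase alpha, was the highest of the 4 genes in all 12 libraries, and Prim2, the large subunit of primase, had its highest level in mESCs (41.9 FPKM, against 24.1 in iPSCs). The ratio of Pola2 to Pola1 ranged from 7.95 in D9T- to 34.6 in D0.

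Of the main polymerases, Pole2, the second subunit of polymerase epsilon, had the widest range (chr12:70302765-70329177), at 3.06 FPKM in D0 and 2.78 in D3, at 5.36, 4.01, 5.52 and 8.62 FPKM in D6T-, D9T-, D12S+ and D16S+, at 2.55, 1.90, 2.46 and 1.49 FPKM in D6T+, D9T+, D12S- and D16S-, and at 7.45 FPKM in iPSCs and 16.4 in mESCs. Pold1 (chr7:51788113-51804185) was at 25.0 FPKM in D0 and 19.0 in D3, at 35.1, 26.0, 62.6 and 62.3 FPKM in D6T-, D9T-, D12S+ and D16S+, at 21.0, 20.3, 32.3 and 19.3 FPKM in D6T+, D9T+, D12S- and D16S-, and at 66.1 FPKM in iPSCs and 85.4 in mESCs. Pold1 had reached its day 16 level by day 12 in the SSEA-1+ fraction. Pole, the catalytic subunit of polymerase epsilon, was at 25.4 FPKM in D16S+, 30.8 in iPSCs and 22.8 in mESCs. Pold2 was at 37.6 FPKM in D0, 95.2 in D6T-, 79.6 in D16S+, 68.0 in iPSCs and 189.9 in mESCs, so that its levels from D6T- to iPSCs lay well below that of the mESCs.

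Fen1, the nuclease that trims flaps, and Lig1, the ligase that seals the lagging strand, differed in size of range. Lig1 (chr7:13844315-13896776) was at 36.9 FPKM in D0 and 35.3 in D3, at 65.4, 51.7, 93.9 and 113 FPKM in D6T-, D9T-, D12S+ and D16S+, at 35.4, 31.4, 43.1 and 30.7 FPKM in D6T+, D9T+, D12S- and D16S-, and at 204 FPKM in iPSCs and 253 in mESCs. Fen1 (chr19:10273621-10278433) was at 44.0 FPKM in D0 and 30.7 in D3, at 40.9, 32.2, 42.7 and 50.5 FPKM in D6T-, D9T-, D12S+ and D16S+, at 25.4, 22.4, 24.9 and 17.9 FPKM in D6T+, D9T+, D12S- and D16S-, and at 68.8 FPKM in iPSCs and 65.3 in mESCs. Lig1 in iPSCs was 5.53 times its D0 level, and Fen1 1.57 times. Both are overlapped by another coding gene on the opposite strand.

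None of the 4 enzymes of nucleotide supply was 2-fold higher in iPSCs than in D0 (median 0.16, against 1.05 for all 41; 18.7% of all kept genes), and 3 of the 4 were at least 2-fold lower in D16S- than in D0 (median -1.57, against -0.70; 11.4% of all kept genes). Genes of other roles shared both traits, such as Rfc2 in iPSCs (0.20) and Gins2 in D16S- (-1.38), and the difference between roles was not tested. Rrm2, the regulated small subunit of ribonucleotide reductase (chr12:25393118-25399011), was at 72.6 FPKM in D0 and 84.5 in D3, at 102, 62.0, 82.8 and 84.9 FPKM in D6T-, D9T-, D12S+ and D16S+, at 55.9, 37.4, 50.3 and 29.0 FPKM in D6T+, D9T+, D12S- and D16S-, and at 109 FPKM in iPSCs and 184 in mESCs. Rrm1 (chr7:109590208-109618285) was at 35.0 FPKM in D0 and 32.7 in D3, at 40.3, 31.5, 28.5 and 33.5 FPKM in D6T-, D9T-, D12S+ and D16S+, at 28.1, 18.6, 24.8 and 17.5 FPKM in D6T+, D9T+, D12S- and D16S-, and at 31.4 FPKM in iPSCs and 48.1 in mESCs. Rrm1 in iPSCs was thus below D0, the only gene of the 41 for which this held as deposited, and at the same total it was above.

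Tk1 and Tyms carried the low values of this group. Tk1 was at 122 FPKM in D0 and 66.2 in D3, at 122, 74.3, 84.4 and 52.6 FPKM in D6T-, D9T-, D12S+ and D16S+, at 74.4, 56.7, 65.3 and 26.2 FPKM in D6T+, D9T+, D12S- and D16S-, and at 123 FPKM in iPSCs and 136 in mESCs. Its level in D16S+ was below that of D12S-, and its iPSC level was 1.01 times that of D0. Tyms was at 13.3 FPKM in D0, 6.73 in D12S-, 3.00 in D16S-, 14.9 in D16S+ and 19.3 in mESCs. Both have a near-identical copy elsewhere in the genome and a coding gene on the opposite strand, so that their values are uncertain.

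Chaf1a and Chaf1b, subunits of the chaperone that places histones on new DNA, were both highest in mESCs and lowest in D16S-. Chaf1b (chr16:93884145-93906351) was at 28.8 FPKM in D0 and 17.7 in D3, at 29.0, 23.1, 36.5 and 47.9 FPKM in D6T-, D9T-, D12S+ and D16S+, at 18.7, 16.3, 18.0 and 11.8 FPKM in D6T+, D9T+, D12S- and D16S-, and at 57.3 FPKM in iPSCs and 82.7 in mESCs. Chaf1a (chr17:56179838-56207449) was at 39.7 FPKM in D0 and 29.9 in D3, at 43.3, 29.6, 45.0 and 45.5 FPKM in D6T-, D9T-, D12S+ and D16S+, at 28.4, 23.3, 29.3 and 20.8 FPKM in D6T+, D9T+, D12S- and D16S-, and at 66.3 FPKM in iPSCs and 73.8 in mESCs. In both genes the 4 libraries of the successful route lay above the 4 of the unsuccessful one, for Chaf1a by a margin of 29.6 against 29.3 FPKM.

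**Figure D4:**
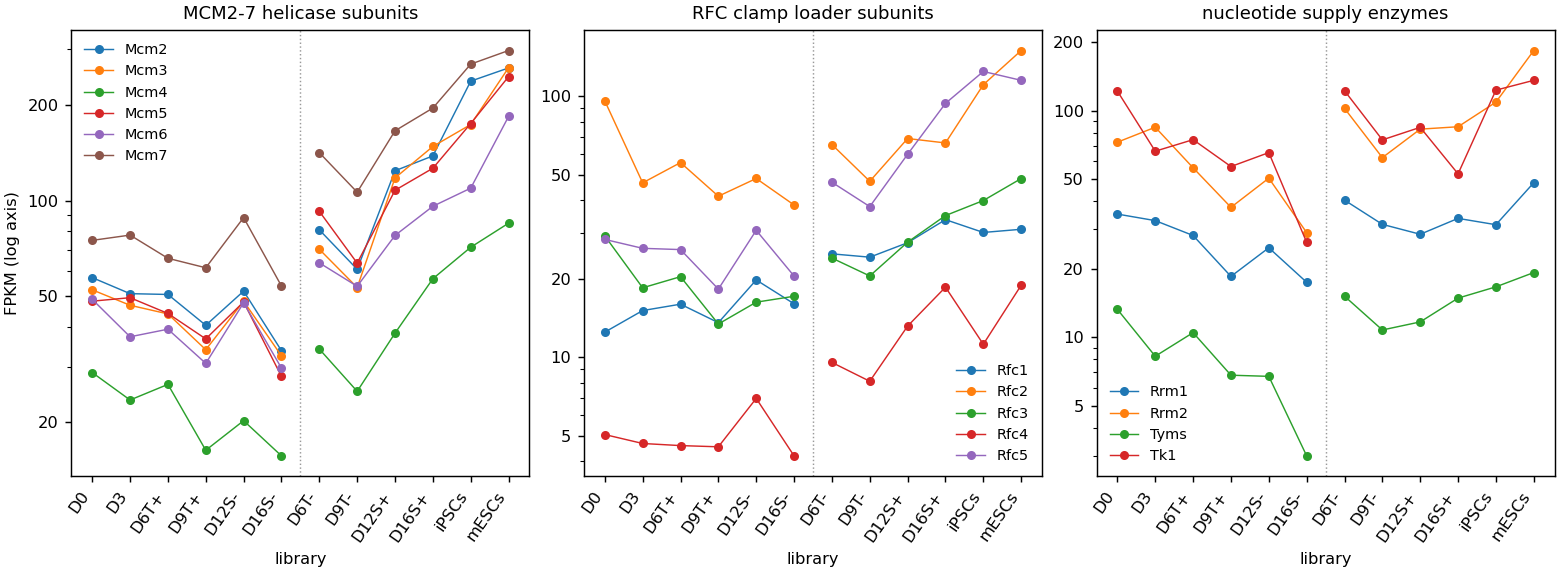
FPKM on a log axis of the MCM2-7 subunits (left), the clamp loader subunits (middle) and the nucleotide supply enzymes (right) in the 12 libraries, 1 per condition, with D0, D3 and the unsuccessful route left of the dotted line and the successful route and end points right of it. Among the MCM lines Mcm7 is on top and Mcm4 at the bottom throughout, Rfc5 passes Rfc2 in D16S+ (93.9 against 66.2 FPKM), and Tk1 is lower in D16S+ (52.6 FPKM) than in D12S+ (84.4 FPKM).

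The end points were compared with the start and with each other. In iPSCs 40 of the 41 genes were higher than in D0, by a median of 1.05, or 2.07-fold (all kept genes 0.027), and 23 were at least 2-fold higher (56.1% of the 41, 18.7% of all kept genes), with none 2-fold lower (21.6% of all kept genes). Orc1, Lig1 and Cdt1 led at 2.84, 2.44 and 2.25. In mESCs all 41 genes were higher than in D0, by a median of 1.46, and 32 were at least 2-fold higher (20.7% of all kept genes) and none 2-fold lower (21.9%). There Orc1, Cdt1 and Lig1 led at 3.04, 2.76 and 2.74. Higher than D0 in both end points were 40 genes, against 43.4% of all kept genes.

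Against D16S+, iPSCs had 32 genes higher and 9 lower, with a median of 0.32 as deposited and 0.15 at the same total. At least 2-fold higher in iPSCs were 3 genes (4.38% of all kept genes): Orc1 (13.8 and 34.6 FPKM), Tk1 (52.6 and 123 FPKM) and Gins2 (41.1 and 91.2 FPKM). None was 2-fold lower (7.77% of all kept genes). For comparison, the median difference from D0 was 0.96 in D16S+ and 1.05 in iPSCs.

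Between the pluripotent end points, 37 genes were lower in iPSCs than in mESCs, by a median of -0.36 as deposited and -0.24 at the same total. At least 2-fold lower were 2 genes (7.41% of all kept genes), Pold2 (68.0 and 189.9 FPKM) and Pole2 (7.45 and 16.4 FPKM), and none was 2-fold higher (6.79%). Higher in iPSCs were Pole (0.42), Rfc5 (0.11), Fen1 (0.074) and Pola1 (0.057), all by less than 2-fold. The share of all kept genes lower in iPSCs, at any size, was 51.0%.

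Neighbouring gene groups were read on the same scale. A list of 32 other fork and origin genes, such as the remaining origin recognition subunits, Cdc7, Timeless and the small polymerase subunits, had 26 genes at least 2-fold higher in D16S+ than in D16S- and 1 lower (median 1.40), where 11.8% of all kept genes were higher and 15.2% lower. In iPSCs 17 of its genes were 2-fold higher than in D0 and 1 lower (median 1.11), against 18.7% and 21.6% of all kept genes. The widest ranges in this list were those of Ticrr, which helps to fire origins, at 2.48 FPKM in D0, 2.07 in D16S-, 22.3 in D16S+ and 60.1 in iPSCs, and of Gmnn, the inhibitor of Cdt1, at 19.1, 12.5, 67.6 and 69.7 FPKM. Gmnn and its target Cdt1 thus lay on the same side in this comparison. The gene of this list that was 2-fold lower in D16S+ was Pold4, the smallest subunit of polymerase delta, named after its values were seen, at 29.4 FPKM in D16S+ and 104 in D16S-, while the catalytic subunit Pold1 was at 62.3 and 19.3 FPKM.

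A list of 24 mitosis genes had all 24 at least 2-fold higher in D16S+ than in D16S- (median 1.99; 11.8% of all kept genes) and 10 at least 2-fold lower in D16S- than in D0 (median -0.92; 11.4%), and on day 9 all 24 were lower than on day 6 in both Thy-1 fractions (34.9%). Ccnb1, the mitotic cyclin B1, was at 11.2 FPKM in D0, 7.50 in D16S-, 71.5 in D16S+ and 42.3 in iPSCs, and Birc5, also known as survivin, at 82.8, 22.1, 95.0 and 142 FPKM. The lists parted in the last step: from D16S+ to iPSCs 20 of the 24 mitosis genes were lower (median -0.27), where 32 of the 41 replication genes were higher. The difference between the lists was not tested.

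The regulators were less uniform. Of 15 E2F, RB family and S phase cyclin and kinase genes, 5 were at least 2-fold higher in D16S+ than in D16S- and none lower (median 0.50; 11.8% and 15.2% of all kept genes). Ccna2, cyclin A2, was at 38.6 FPKM in D16S+ and 5.77 in D16S-. E2f2, one of the activating E2F factors, was at 1.32 FPKM in D0 and 3.54 in D3, at 16.2 and 7.09 in D6T- and D6T+, and at 2.12 and 2.39 in D16S+ and D16S-, so that it was highest in D6T-, where none of the 41 members had its highest level. Of 12 repair and mitochondrial polymerase genes, 1 was at least 2-fold higher in D16S+ than in D16S- (median 0.41; 11.8% of all kept genes), and none was 2-fold lower in D16S- than in D0 (median 0.11; 11.4%). Poli and Rev1, translesion polymerases, had the widest ranges, from 2.13 FPKM in D0 to 12.0 in mESCs and from 5.68 FPKM in D0 to 19.2 in D16S+.

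**Figure D5:**
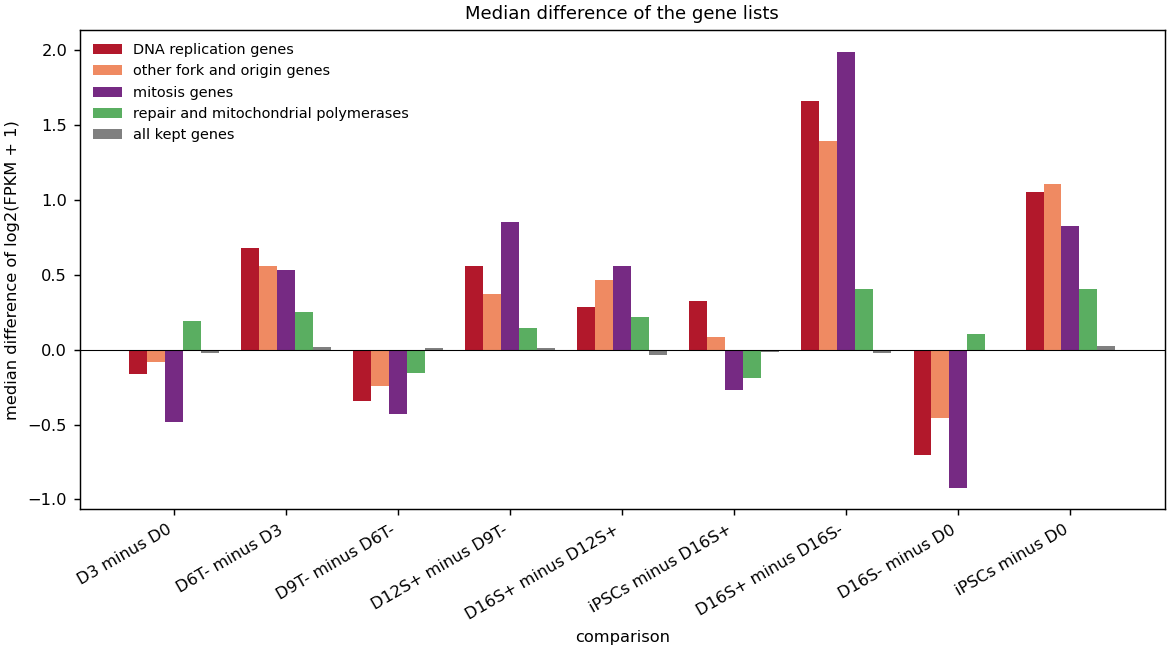
Bars give the median difference of log2(FPKM + 1) in 9 comparisons for the 41 DNA replication genes, 32 other fork and origin genes, 24 mitosis genes, 12 repair and mitochondrial polymerase genes and all 14178 kept genes, on the deposited scale with 1 library per condition. In D16S+ minus D16S- the medians are 1.66, 1.40, 1.99, 0.41 and -0.021, and in iPSCs minus D16S+ the replication genes (0.32) and the mitosis genes (-0.27) lie on opposite sides of 0.

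Markers of the cells that the fractions could hold differed between libraries as well. The 10 fibroblast markers summed to 7348 FPKM in D0, 434 in D16S- and 34.9 in D16S+, and the 8 pluripotency markers to 2.28, 142 and 4783 FPKM in the same libraries. The 6 epithelial markers summed to 61.9, 1476 and 882 FPKM there, so that D16S- held more epithelial and fewer fibroblast transcripts than D0, and to 306 FPKM in mESCs. Most of the sum in D16S- was Krt8 (543 FPKM) and Krt18 (664 FPKM). Cdh1 (44.6 against 130 FPKM), Epcam (74.6 against 150), Cldn4 (146 against 190) and Ocln (3.16 against 3.30) were lower in D16S- than in D16S+. The leukocyte markers, of which 5 of 6 passed the filter, summed to between 11.4 FPKM in D0 and 135.6 FPKM in D16S-, the library in which 26 members were lowest. Of that sum Cd68 made up 115 FPKM in D16S-, against 62.0 in D16S+, and Csf1r 19.9 FPKM, against 6.63 in D16S+ and 1.55 in D0, both genes of macrophages. Cd68 was also at 40.0 FPKM in iPSCs and 48.0 in mESCs, and Csf1r at 6.52 FPKM in iPSCs. Itgam, a further gene of this list, was at 0.354 FPKM in D16S- and highest in D3 (1.68 FPKM). Ptprc, the pan-leukocyte antigen CD45, was at no more than 0.425 FPKM in any library and at 0.0269 FPKM in D16S-. The 4 endothelial markers summed to between 9.40 FPKM in D6T+ and 62.7 FPKM in mESCs. Of the sum in mESCs Pecam1 made up 61.1 FPKM, while Cdh5 was at 0.243, Kdr at 0.209 and Tek at 1.22 FPKM there. The part of these cell types in the levels of the replication genes was not tested.

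In the genome, each of the 41 genes had a single GENCODE M1 gene of its name that overlapped the locus of the table. Some loci ran well past that gene. The locus began at 123012765 for Gins2 (gene start 123102533), at 13844315 for Lig1 (13862632) and at 5761868 for Pold2 (5772183). For Tk1 it ended at 117701222 (gene end 117687406). Whether these values hold other sequence was not tested, and Pold2 is counted among the genes without copies or overlaps below. A near-identical copy, with at least 90% identity over at least 50% of the transcript, was found for Cdc6, Mcm4, Mcm7, Pcna, Rfc5, Rpa3, Tk1 and Tyms. Another coding gene overlapped 11 of the 41, on the opposite strand for Mcm7, Cdc45, Gins2, Rfc4, Rfc5, Fen1, Lig1, Tyms, Tk1 and Chaf1a and on the same strand for Cdt1. Of the 26 genes with neither, 19 were at least 2-fold higher in D16S+ than in D16S- and 15 in iPSCs than in D0.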

How the data were processed

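PolyA mRNA was measured in 12 mouse libraries, 1 per condition, and groups were read from the labels' titles. Table columns were assigned by their day and marker sign, given there as "pos" or "neg". The authors made TruSeq libraries, with a kit that the labels call stranded and the study's methods name without that word, mapped the reads to mm9 with STAR, removed reads with more than 2 mismatches or more than 1 locus, and estimated FPKM with Cuffdiff. The deposited values are these FPKM, with the ends of their intervals and a status word. Versions, gene annotation, strand setting and scaling were not given in the sources used here. Dropping multi-locus reads lowers genes that have near-identical copies, and FPKM hides the number of fragments, which leaves the absolute depth unknown. A relative depth was taken from the steps of values under 0.5 FPKM, and covers counting error only.

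Values were used as log2(FPKM + 1) in genes with at least 1 FPKM in at least 1 library, and differences were counted at 2-fold in 19 pairs of libraries (14 planned and 5 added after the data were seen), with no test and no p-value. Columns of per-library values left unused numbered 0. The members, gene lists and motif words were chosen with earlier results of these data known. FPKM in every library is given for the widest and narrowest gene of each role (and for Tk1, chosen after its values were seen), the 3 largest differences per direction are named where past 2-fold, and the 2 widest genes of each other list are named. Other members are named by role. Copies of the coding transcripts were sought in mm9 with minimap2 2.31-r1302, and overlaps in GENCODE M1. Promoter sequences are RefSeq's (GRCm38.p6). Python 3.11.15 with pandas 2.3.3, numpy 2.4.6 and matplotlib 3.10.9 was used, and the counting functions were tested on simulated data. Alternatives were a pseudocount of 0.1, libraries at the same total, median-of-ratios scaling, no filter, a filter of 5 FPKM, a threshold of 1.5-fold, the 31 members with narrower intervals and, added later, the 26 members without copies or overlapping genes.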

Additional observations from a re-analysis of the deposited data

Results flagged for a closer look

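The day 16 fractions stood apart from each other in how they compared with earlier libraries. From day 12 to day 16 the median difference of the 41 replication genes was 0.28 in the SSEA-1+ fraction, with 35 genes higher and 6 lower, and -0.48 in the SSEA-1- fraction, with 2 higher and 39 lower. Scaling of every library to one total gave 0.36 and -0.48 instead. From D0 to day 16 the median was 0.96 in the SSEA-1+ fraction (37 higher, 4 lower) and -0.70 in the SSEA-1- fraction (3 higher, 38 lower), and 1.36 and -0.40 at the same total. The fractions moved opposite ways from a shared or a matched earlier library, which is what drew attention to them. Each fraction of each day is 1 library and both differences from D0 use the same D0 library, so neither contrast between the fractions was tested.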

How the results depend on the processing

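No paired analysis was possible because every condition had 1 library. Of 133 medians under the alternatives, 129 lay within 0.25 of the reported one, and of 304 counts 265 within 1.5 times. Counts that were 0 in both settings are among the 265. Median-of-ratios scaling moved none of them, with library factors between 1.0001 and 1.015, so that it changed the values little. Dropping the filter could not move any, since all 41 genes pass it, and its unchanged values are no check. At the same total FPKM, D3 minus D0 had a median of 0.065 and 0 genes lower past 2-fold, D6T+ minus D0 a median of 0.0052, D16S- minus D0 a median of -0.40 and 4 lower, D16S+ minus D0 a median of 1.36 and 0 lower, and iPSCs minus mESCs 1 lower; the cause was not tested. A pseudocount of 0.1 gave 6 genes higher in D6T- than D6T+, 5 in D9T- than D9T+, 1 lower in D9T+ than D6T+ and 2 lower in D16S- than D12S-. A filter of 5 FPKM left 1 gene higher from D3 to D6T-. The 1.5-fold threshold, which is easier to pass, gave as higher 24 genes from D3 to D6T-, 20 from D9T- to D12S+, 7 from D12S+ to D16S+, 9 from D16S+ to iPSCs, 28, 20 and 30 between the fractions of days 6, 9 and 12. It gave as lower 8 from D0 to D3, 7 from D6T- to D9T-, 1 from D12S+ to D16S+, 1 from D16S+ to iPSCs, 7 from D0 to D6T+, 25 from D0 to D16S-, 2 from D0 to D16S+, 11 in iPSCs against mESCs, 3 from D6T+ to D9T+, 2 from D9T- to D12S- and 13 from D12S- to D16S-. The share of all kept genes was not counted at 1.5-fold, so the counts at that threshold have no background beside them and are not read as a result about the 41. The 31 genes with narrower intervals had 1, 3 and 1 higher from D3 to D6T-, D9T- to D12S+ and D16S+ to iPSCs, and 1 lower in iPSCs than mESCs. The 26 genes without copies or overlapping genes, chosen after seeing the data, had 1 higher from D16S+ to iPSCs, 1 in D9T- than D9T+, 19 in D16S+ than D16S-, 15 in iPSCs and 21 in mESCs than D0, with 5 lower in D16S- than D0 and 0 lower from D12S- to D16S- and from D0 to D16S+; fewer genes are counted there. Depth limits the lowest members most, Gins3 and Pola1, which were near 1 FPKM in some libraries.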

Other observations

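Outside the 41 genes, 11468 kept genes with a range of at least 1 on the log2(FPKM + 1) scale were ordered by the correlation of their levels with the mean profile of the members over the 12 libraries, as a description with no test. The closest were Rad51ap1 (Pearson r 0.99), Mms22l (0.98), Clhc1 (0.98), Ilf2 (0.98), Espl1 (0.98), Xrcc2 (0.98), Cdk2 (0.98), Abhd10 (0.98), Cenpu (0.98) and Rad54l (0.98). Rad51ap1, Mms22l, Xrcc2 and Rad54l are known from homologous recombination, Espl1 is the separase that parts sister chromatids, Cenpu is a kinetochore protein and Cdk2 is the kinase of S phase cyclins. Rad51ap1 was at 5.97 FPKM in D0, 7.70 in D6T-, 10.4 in D16S+, 3.03 in D16S-, 11.9 in iPSCs and 18.4 in mESCs. Espl1 was at 11.4 FPKM in D0, 39.8 in D16S+, 7.37 in D16S- and 74.2 in mESCs. Ilf2, an RNA-binding protein, had the highest levels of the 10 genes, with 48.2 FPKM in D0, 84.0 in D16S+ and 31.7 in D16S-.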
